A study of Bos taurus with 20 samples.

Results

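The comparison described here asks what remained of an E. coli infection of the bovine udder after antimicrobial treatment, gene by gene and by gene group. Its members were 9 of the 20 arrays of the series, namely the 6 treated glands and the 3 not challenged glands of the 3 cows killed 48 h after challenge, chosen by their labels. The study challenged mid lactating Holstein Friesian cows with live bacteria through the teat canal and killed them 24 or 48 h later. Total RNA of all 4 mammary glands was profiled on Affymetrix bovine arrays. This covered 3 cows of 48 h (here cows 1, 2 and 3) and 2 cows of 24 h (cows 4 and 5). The study left 1 further cow of 24 h out of the arrays because of low RNA integrity. In each cow 1 rear gland received 100 colony forming units of E. coli followed by 300 mg of the cephalosporin cefapirin (CF), and the other rear gland received the same challenge followed by 300 mg cefapirin with 20 mg of the glucocorticoid prednisolone (CFPD). Infusions were given at 4, 12, 24 and 36 h, so that the glands of 48 h had received 4 of them. The left front gland was challenged and left untreated (CNT) and the right front gland was not challenged (NC). All glands of a cow therefore shared her circulation, and an NC gland was the unchallenged gland of an infected animal. Treated glands were always rear glands and NC glands always right front glands, so treatment and gland position cannot be told apart. The labels give the cisternal region as the sampled tissue and the methods give the mid parenchyma.

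In E. coli mastitis, bacterial lipopolysaccharide is sensed by epithelial cells and macrophages through Toll-like receptor signalling, and the gland answers with chemokines, acute phase proteins and antimicrobial peptides. Neutrophils are recruited from blood into the milk within hours, and monocytes and lymphocytes follow. Cefapirin kills the bacteria by blocking cell wall synthesis, whereas prednisolone acts on host cells through the glucocorticoid receptor and dampens transcription of inflammatory genes.

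Values were log2 RMA levels, and differences are treated gland minus the NC gland of the same cow on the log2 scale, so that a difference of 1 is a fold of 2. A total of 13000 probe sets were tested with limma with cow as a block, and 8402 of them carried 1 gene symbol (6734 distinct genes). A probe set was called DE at a Benjamini-Hochberg adjusted p below 0.05 over all probe sets and a difference of at least 1 in size. A probe set was tested if it lay above the array median on at least 3 of the 12 arrays of 48 h, CNT arrays included, so that 343 of the 13000 were tested only through the CNT glands and had treated and NC readings mostly below the array median. Array medians lay between 7.12 and 7.31, and the tissue read as lactating gland, with a mean level over the 20 milk protein and lactose synthesis genes of 13.13 to 13.56 in treated glands, 12.56 to 13.27 in CNT glands and 13.35 to 13.55 in NC glands. Levels of the bacterial spike controls (BioB) differed between cows, from 8.07 to 8.83 on the arrays of cow 2 and from 9.64 to 9.9 on those of cow 1. The cow block takes up the part between cows but not the spread among the arrays of 1 cow.

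At 48 h the treated glands were close to the NC glands over the array as a whole. No probe set was called up-regulated in treated against NC glands (0% of 13000) and 1 was called down-regulated (0.00769%), UBD. The median size of the difference over all probe sets was 0.0815 in treated glands and 0.285 in CNT glands, and the 5th and 95th percentiles of treated minus NC were -0.24 and 0.25, with a median of -0.01. At an unadjusted p below 0.05, 246 probe sets were higher (1.89%) and 380 were lower (2.92%). These counts moved with single libraries: the higher count was 118 without the NC array and 105 without all arrays of cow 2, 423 without the NC array, 775 without the CF array and 733 without all arrays of cow 3, and the lower count was 230 without cow 2 and 582 without the CF array of cow 3. In the CNT glands, read against the same NC glands, 503 probe sets were called higher (3.87%) and 169 lower (1.3%), 672 in all and 228 without cow 1. Both comparisons share the 3 NC arrays, and their values are given side by side below without a test between them.

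All 6 treated glands lay above their own NC gland in 307 probe sets (2.36%) and below it in 588 (4.52%), and the mean difference reached 1 or more in 24 probe sets (0.185%) and -1 or less in 5 (0.0385%). The 6 glands differed in how far they stood from their NC gland. Differences of at least 1 in either direction were found in 61 probe sets in the CF gland and 26 in the CFPD gland of cow 1, in 348 and 144 in those of cow 2, and in 135 and 220 in those of cow 3. The CF and CFPD labels of cow 2 are in doubt, here and wherever a single treated gland of that cow is named or drawn. The 3 CNT glands had 1141, 1823 and 933 such probe sets.

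Acute phase genes had the largest positive mean differences. HP, coding for haptoglobin, which binds free haemoglobin, read 9.67, 11.49 and 8.88 in the CF glands of cows 1 to 3, 6.90, 11.46 and 10.95 in the CFPD glands, and 7.5, 9.64 and 6.18 in the NC glands. The CFPD gland of cow 1 was the only treated gland below its NC gland, by -0.60, and the CFPD gland of cow 3 stood 4.77 above its own. The mean difference was 2.12 (SE 0.70, 95% interval 0.55 to 3.69) and was not called (limma adjusted p = 0.967). The CNT glands stood 6.22 above NC (adjusted p = 0.00389).

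LBP encodes the protein that hands lipopolysaccharide to CD14. It read 11.92, 12.49 and 10.82 in CF, 9.997, 12.86 and 11.62 in CFPD, and 9.53, 10.84 and 9.15 in NC glands. All 6 treated glands were above their NC gland, the CFPD gland of cow 1 by 0.47 and the others by 1.65 to 2.47. The mean difference of 1.78 (SE 0.37, 95% interval 0.96 to 2.60) corresponded to a fold of 3.44 and was not called (adjusted p = 0.582). Leaving out 1 array or cow gave differences of 1.55 to 2.08 with adjusted p between 0.0518 (without the CFPD array of cow 1) and 1 (without cow 2), so LBP was called in none of these fits. The CNT difference was 4.23.

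SAA3, the serum amyloid A form made by mammary epithelium, read 12.98, 14.15 and 12.20 in CF, 10.84, 14.03 and 14.09 in CFPD, and 12.26, 13.14 and 8.78 in NC glands. The NC gland of cow 3 was the lowest of the 9, and the treated glands of that cow stood 3.42 and 5.31 above it, against -1.43 to 1.01 in the other cows. The mean difference was 1.65 (SE 0.81, adjusted p = 0.998), beside 3.78 in CNT glands, and was 0.30 without cow 3. C4BPA, the alpha chain of a soluble complement inhibitor, was above NC in all 6 glands by 0.26 to 3.83, with a mean of 1.65 (SE 0.63) and a CNT difference of 4.29. CFB, complement factor B, had a mean difference of 0.97 (SE 0.45) with 5 of 6 glands above NC.

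Of the 21 acute phase and pattern recognition genes listed, 12 were tested and none was called. Their median difference was 0.51, against -0.01 over all probe sets, and 0.15 over the 11 that were not tested through the CNT glands alone. At an unadjusted p below 0.05, 3 were higher, where 1.89% of all probe sets were, and none was lower. Of the 12, 8 had a positive mean difference (48.1% of all probe sets did) and 4 a negative one. Only 2 were above NC in all 6 glands (2.36% of all). The gland medians ran from 0.02 in the CFPD gland of cow 1 to 1.65 in the CFPD gland of cow 3. In CNT glands the list median was 2.08 and 6 of its members were called higher. The count of 3 became 1 without cow 2 or without the NC array of cow 3, 5 without cow 1, without the CFPD array of cow 1 or without the CF array of cow 3, and 6 without the NC array of cow 1.

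**Figure D1:**
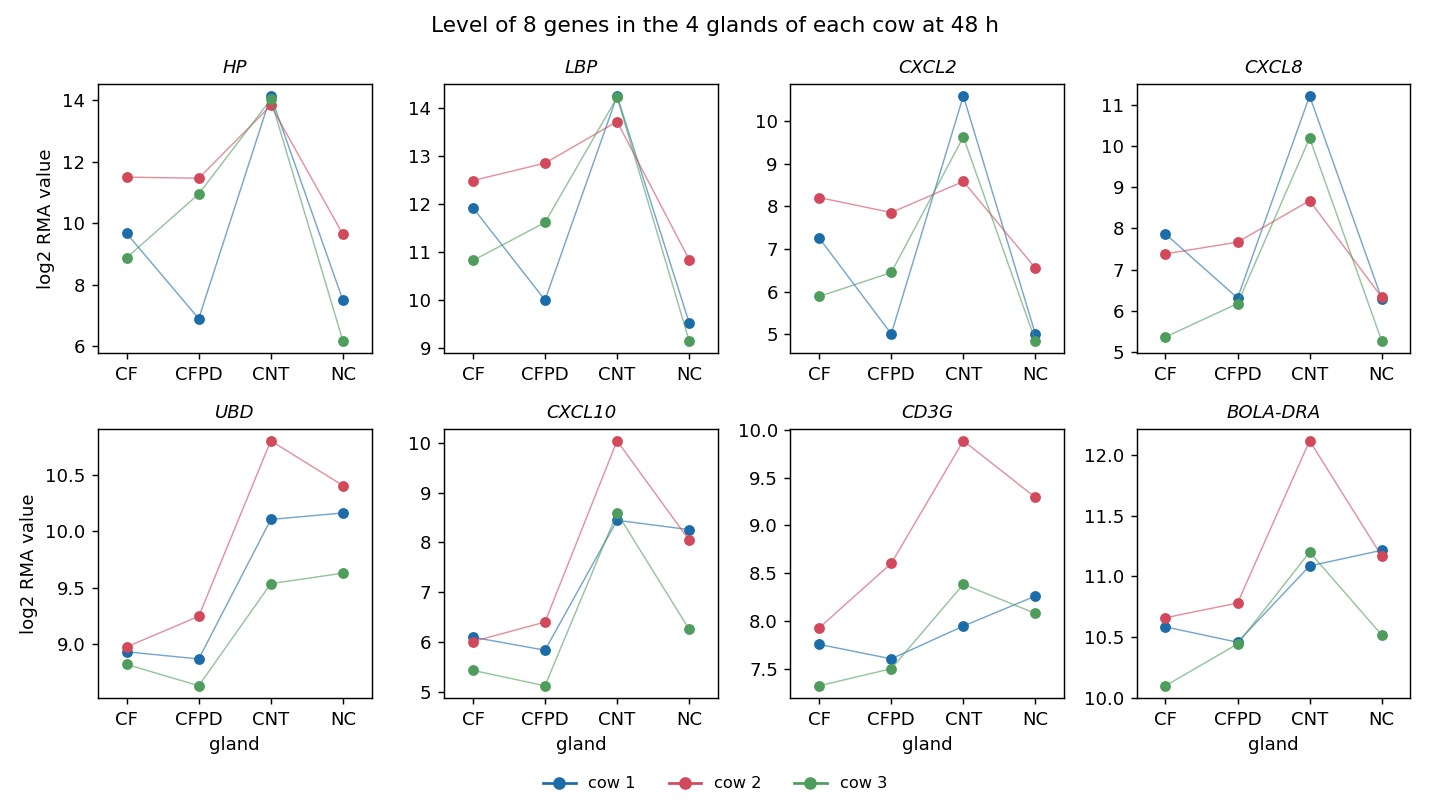
Log2 RMA level (y axis, a separate range in each panel) of 8 genes in the CF, CFPD, CNT and NC glands at 48 h, with 1 line and colour per cow. The treated glands lie between the CNT and NC glands for LBP in all 3 cows, whereas for UBD, CXCL10, CD3G and BOLA-DRA all 6 treated glands lie below the NC gland of the same cow.

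Of the chemokine ligands, CXCL2, CXCL3, CXCL8 and GRO1 were the 4 that were higher at an unadjusted p below 0.05. CXCL2, a ligand of the neutrophil receptor CXCR2, read 7.26, 8.21 and 5.89 in CF, 5.01, 7.86 and 6.45 in CFPD, and 5.00, 6.55 and 4.84 in NC glands. All treated glands were above NC, but the CFPD gland of cow 1 by only 0.01. The mean difference was 1.31 (SE 0.39, adjusted p = 0.862), beside 4.14 in CNT glands. CXCL8, the main neutrophil attractant, was higher by 0.02 to 1.57 in the 6 glands, with a mean of 0.83 (SE 0.31), beside 4.05 in CNT glands. The related neutrophil chemokines CXCL3 (1.09, SE 0.25, 5 of 6 glands) and GRO1 (1.09, SE 0.25, 6 of 6) were also above NC. The CNT differences were 0.96 for CXCL3 and 2.93 for GRO1, and a more abundant GRO1 probe set averaged 0.82. CXCL5, another neutrophil attractant, named after its values were seen, averaged 0.17 (SE 0.24), with 4 of 6 glands above NC, beside 3.58 in CNT glands. Without cow 3, CXCL3 was called higher (1.43, adjusted p = 0.0176).

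CXCL10, the interferon-induced ligand of the lymphocyte receptor CXCR3, had the largest negative mean difference of the named genes. It read 6.10, 6.02 and 5.44 in CF, 5.84, 6.41 and 5.13 in CFPD, and 8.26, 8.05 and 6.26 in NC glands. Every treated gland was below every NC gland except that the CFPD gland of cow 2 (6.41) overlapped the NC gland of cow 3 (6.26). It was tested through the CNT glands, and all 6 treated readings were below the array median. The mean difference was -1.70 (SE 0.21, 95% interval -2.18 to -1.22, adjusted p = 0.0868), while CNT glands stood 1.5 above NC (adjusted p = 0.0232). Without cow 3 the difference was -2.06 and was called (adjusted p = 0.0076), as it was without the NC array (0.0144) or the CF array (0.0356) of that cow, and without cow 1 it was -1.41 (adjusted p = 0.871).

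Several CC chemokines had negative mean differences. CCL4 was below NC in all 6 glands (-0.58, SE 0.12), as was CCL5 (-0.55, SE 0.18), both attractants of leukocytes. CCL2, a monocyte attractant, was below NC in 5 of 6 glands (-0.62, SE 0.23) and CCL8 in 4 of 6 (-0.75, SE 0.24). None of the 4 was called. In CNT glands CCL2, CCL4 and CCL8 were called higher, by 1.72, 1.01 and 1.58. The less abundant CCL2 probe set averaged -0.34 (SE 0.26), with 2 of 6 glands above NC. The most abundant CCL3 probe set differed by 0.02 (SE 0.09), but it did not rise in CNT glands either (-0.08). The other CCL3 probe set differed by 0.24 (SE 0.24), beside 2.70 in CNT glands. CCL20, an attractant of lymphocytes and dendritic cells, named after its values were seen, averaged 0.26 (SE 0.17), with 4 of 6 glands above NC. Over the 20 chemokine ligands tested, 4 were higher (1.89% of all probe sets) and 5 lower (2.92% of all) at an unadjusted p below 0.05, and the median was -0.11, beside 0.83 in CNT glands. Of the 20, 4 were tested only through the CNT glands, and the treated median over the other 16 was -0.05. The CNT median of 0.83 includes these 4, which passed the filter by high CNT readings. Without cow 1 or its NC array the 5 lower ones became 3.

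Neutrophil genes had a list median of 0.06 over 11 genes in treated glands and 2.46 in CNT glands, where all 11 were called higher. Of the 11, 5 were tested only through the CNT glands (CXCR1, NCF1, PLEK, TREM1 and OLR1, the last pair named after their values were seen), and 4 of these were below the array median on all 9 treated and NC arrays, so their treated minus NC values are readings of low signals. The median over the other 6 was 0.30 in treated glands. Because the 5 passed the filter by high CNT readings, the filter itself favoured their calls in CNT glands, and the CNT median of 2.46 includes them. By gland the list median ran from -0.12 in the CFPD gland of cow 2 to 0.84 in the CFPD gland of cow 3. The mean level over the list was 7.06 to 7.91 in treated glands, 10.1 to 10.6 in CNT glands and 6.81 to 7.92 in NC glands, and within cow 3 it was 7.06 in the CF, 7.72 in the CFPD and 6.81 in the NC gland. In bulk tissue fewer cells of a type and less RNA per cell cannot be told apart. S100A8, a subunit of calprotectin, differed by 0.26 (SE 0.18) and CXCR1, a CXCL8 receptor, by 0.42 (SE 0.23). NCF1, a cytosolic subunit of the phagocyte oxidase, differed by -0.37 (SE 0.21).

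NCF4, another subunit of that oxidase, had the highest difference of that list. It read 10.08, 10.59 and 9.65 in CF, 9.18, 10.73 and 10.39 in CFPD, and 8.93, 9.22 and 9.14 in NC glands. All 6 treated glands were above their NC gland, and only the CFPD gland of cow 1 overlapped the NC range. Its mean difference was 1.01 (SE 0.23, adjusted p = 0.643), beside 2.23 in CNT glands.

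In a few genes 1 gland carried most of the difference. CHI3L1, a secreted chitinase-like protein, stood 4.78 above NC in the CFPD gland of cow 3 and between -0.67 and 0.88 in the others. DEFB4A, a beta defensin, stood 3.49 above NC in that gland and between -1.33 and 0.28 in the others, S100A12 2.78 against -0.05 to 0.74, and CD68, a lysosomal protein of macrophages, 2.50 against -0.53 to 0.44. LAP, the lingual antimicrobial peptide, was above NC in 4 of 6 glands with a mean of 0.56 (SE 0.40). None of these was called, and all 5 were called higher in CNT glands. The whole antimicrobial list (7 tested) had a median of 0.14, beside 1.37 in CNT glands.

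Monocyte and macrophage genes had a median of -0.02 over 13 genes, beside 1.18 in CNT glands with 8 called higher. CSF1R, the receptor for macrophage colony stimulating factor, differed by -0.05 (SE 0.17) and CCR1, a receptor for CC chemokines, by 0.30 (SE 0.18). FCER1G, the signalling chain of Fc receptors, was below NC in all 6 glands (-0.41, SE 0.15), while it was called higher in CNT glands (1.31). Further genes of the inflammatory response had small differences, among them CXCR4 (-0.27, SE 0.15), the costimulatory receptor CD40 (-0.03, SE 0.21) and the kinase MAP3K8 (0.06, SE 0.12). MAP3K8 was called higher in CNT glands, by 2.14. CD40 stood only 0.52 above NC in CNT glands and was not called there (limma adjusted p = 0.282). Its small difference in treated glands therefore cannot show a return to the NC level. Both CCR1 and MAP3K8 were tested only through the CNT glands, with treated and NC readings mostly below the array median.

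Most T and NK cell markers had negative differences. Of 15 T and NK cell markers tested, 11 were lower at an unadjusted p below 0.05 (2.92% of all probe sets were) and 10 were below NC in all 6 glands (4.52% of all probe sets). The list median was -0.43, with gland medians between -0.66 in the CF gland of cow 2 and -0.13 in the CFPD gland of cow 3. None of the 15 was called. Leaving out any 1 array or cow left 8 to 11 lower members. In CNT glands the median was 0.16 with 1 member called higher. The mean level over the list was 7.52 to 8.12 in treated glands, 7.82 to 8.75 in CNT glands and 7.87 to 8.49 in NC glands.

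CD3G, a chain of the T cell receptor complex, read 7.76, 7.93 and 7.32 in CF, 7.60, 8.60 and 7.5 in CFPD, and 8.26, 9.29 and 8.08 in NC glands. Each treated gland was below its own NC gland, with differences of -1.36 to -0.51, although the ranges of the groups overlapped between cows. The mean difference was -0.76 (SE 0.15, 95% interval -1.10 to -0.41, limma adjusted p = 0.582). CD8A, the cytotoxic T cell coreceptor, averaged -0.58 (SE 0.17), and CD69, an early activation marker named here after its values were seen, averaged -0.52 (SE 0.09), both below NC in all 6 glands. CD69 was called higher in CNT glands, by 1.61. CD4 (0.14, SE 0.12) and CD6 (0.13, SE 0.12) did not share the direction.

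Other leukocyte genes outside that list, not all of them particular to lymphocytes, were among the 12 with the most negative differences shared by all 6 glands. These were PTPRC, the pan-leukocyte phosphatase CD45 (-0.71, SE 0.17), CD48, an adhesion molecule of lymphocytes and monocytes (-0.70, SE 0.17), CD96, a receptor of T and NK cells (-0.68, SE 0.18), and CXCR6, a chemokine receptor of T cell subsets (-0.66, SE 0.10). The CNT differences were 0.62 for PTPRC, 1.18 for CD48, -0.27 for CD96 and 0.13 for CXCR6. For TCRA, the T cell receptor alpha chain, 1 probe set was lower by this rule (-0.71) and the other 6 lay between -0.04 and 0.10. IL2RG, the shared chain of several interleukin receptors, was also below NC in all 6 glands (-0.42, SE 0.13). LOC524810 (-0.95) and LOC510988 (-0.70) are given by their identifiers alone. The adjusted p of these genes ranged from 0.219 to 0.926.

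Antibody and antigen presentation genes also had negative mean differences. IGCGAMMA, the constant region of immunoglobulin G heavy chains, was below NC in all 6 glands, with differences of -2.57 to -0.24 (mean -1.38, SE 0.34), and its other probe set averaged -0.50. IGHM, the heavy chain of IgM, averaged -0.58 (SE 0.18) and JCHAIN, which joins immunoglobulin polymers, -0.45 (SE 0.30). IGCGAMMA was called lower in CNT glands too (-1.54, adjusted p = 0.0298). The 3 B cell and plasma cell genes tested had a median of -0.45, with 1 lower at an unadjusted p below 0.05.

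BOLA-DRA, the alpha chain of the bovine MHC class II molecule DR, read 10.58, 10.66 and 10.10 in CF, 10.46, 10.78 and 10.44 in CFPD, and 11.22, 11.17 and 10.52 in NC glands. All 6 were below their NC gland, with differences of -0.76 to -0.07 (mean -0.46, SE 0.12, adjusted p = 0.715). BOLA-DMA, which loads peptides onto class II molecules, averaged -0.41 (SE 0.15), and BOLA-DQB1 -0.70 (SE 0.11, adjusted p = 0.219). BOLA-DQB1 read 3.12 to 4.07 in the treated and NC glands of cow 1 and 7.15 to 9.67 in those of the other cows, and its other 4 probe sets averaged -0.62 to -0.14. Of the 14 class II and antigen presentation genes tested, 6 were lower at an unadjusted p below 0.05 (2.92% of all probe sets), with a median of -0.24, beside 0.62 in CNT glands. That count was 1 without cow 1, without cow 2 or without the NC array of cow 2, 2 without the NC array of cow 1, and 3 without the CFPD array of cow 1 or the CF array of cow 2.

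UBD encodes FAT10, a ubiquitin-like protein induced by interferon gamma and tumour necrosis factor, and was the single called gene. It read 8.93, 8.97 and 8.82 in CF, 8.87, 9.24 and 8.63 in CFPD, and 10.16, 10.41 and 9.63 in NC glands. All 6 treated glands were below all 3 NC glands, and below the CNT glands at 10.11, 10.80 and 9.53. UBD fell by 1.16 in treated against NC glands (SE 0.11, 95% interval -1.41 to -0.91, limma adjusted p = 0.0266), a fold of 2.23. CNT glands did not differ detectably from NC (0.08, adjusted p = 0.779). The call was lost without cow 1 (difference -1.10, adjusted p = 0.682) or cow 2 (-1.09, adjusted p = 0.922) and held without cow 3 (-1.28, adjusted p = 0.0163). It was also lost without any single array of cows 1 and 2 or without the CFPD array of cow 3 (adjusted p 0.0587 to 0.571). With the treated glands of a cow averaged first the call was lost too (limma adjusted p = 0.23). The same held with all 12 arrays (0.371) and after quantile normalization of the 9 arrays (0.095).

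Interferon stimulated genes as a list did not share that direction. Their median was -0.01 over 13 genes, with 2 lower and none higher at an unadjusted p below 0.05, beside 1.07 in CNT glands with 7 called higher. RSAD2, the antiviral protein viperin, was below NC in all 6 glands (-0.27, SE 0.10). VCAM1, an adhesion molecule of activated endothelium, was also below NC in all 6 (-0.47, SE 0.13), although the adhesion and leukocyte traffic list had a median of -0.06. Both RSAD2 and VCAM1 were tested only through the CNT glands. Their treated and NC readings were mostly below the array median, so these differences are between low signals.

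SDS and PDK4 were also among the 12 with the most positive differences shared by all 6 glands. SDS, a serine dehydratase of amino acid breakdown, read 8.42, 10.32 and 7.58 in CF, 6.75, 10.71 and 8.64 in CFPD, and 6.53, 8.64 and 6.27 in NC glands, with all 6 above their NC gland (mean 1.6, SE 0.36, adjusted p = 0.643). PDK4, which inhibits pyruvate dehydrogenase, was above NC in all 6 glands with each of its 3 probe sets (means 1.25 to 1.38). Its difference was 0.33 and 0.67 in the CF and CFPD glands of cow 1, 2.69 and 2.00 in those of cow 2, and 0.65 and 1.96 in those of cow 3. The CNT difference was 1.5 and was not called (adjusted p = 0.115).

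Of 22 glucocorticoid response genes tested, 18 had a positive mean difference (48.1% of all probe sets did) and 4 were higher at an unadjusted p below 0.05 (1.89% of all probe sets), with none called and a list median of 0.21, beside 0.72 in CNT glands. The list median was 0.20 in CF and 0.29 in CFPD glands. MT2A, a metallothionein, averaged 1.04 (SE 0.60), with 3.19 in the CFPD gland of cow 3. The 4 higher members became 1 without cow 2 or its NC array, 2 without cow 1, 9 without cow 3 and 10 without the CF array of cow 3.

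The other 5 of the 12 were CDH16, a cadherin (1.27, SE 0.33, and 0.62 without cow 2), RNF183, a ubiquitin ligase (1.13, SE 0.26), MPZL2, an epithelial junction protein (1.03, SE 0.30), S100A2, an epithelial calcium-binding protein (0.91, SE 0.33), and RASL11B, a small Ras-like protein (0.91, SE 0.11). RASL11B read 8.52, 10.41 and 8.58 in CF, 8.35, 10.15 and 8.46 in CFPD, and 7.41, 9.21 and 7.89 in NC glands. Its differences were between 0.57 and 1.20, the least spread of the 12, and its adjusted p was 0.0868. Without cow 3 it was called higher (1.05, adjusted p = 0.0336). The other RASL11B probe set averaged 0.49 (SE 0.15), above NC in all 6 glands. OSMR, the oncostatin M receptor (0.51, SE 0.14), and BCL3, an atypical NF-kB inhibitor family member (0.40, SE 0.11), were also above NC in all 6 glands. Further OSMR probe sets averaged 0.42, with 4 of 6 glands above NC, and 0.37, with all 6 above it. The epithelial junction, keratin and claudin list had a median of 0.10 over 21 genes, with none at an unadjusted p below 0.05 and none above NC in all 6 glands.

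**Figure D2:**
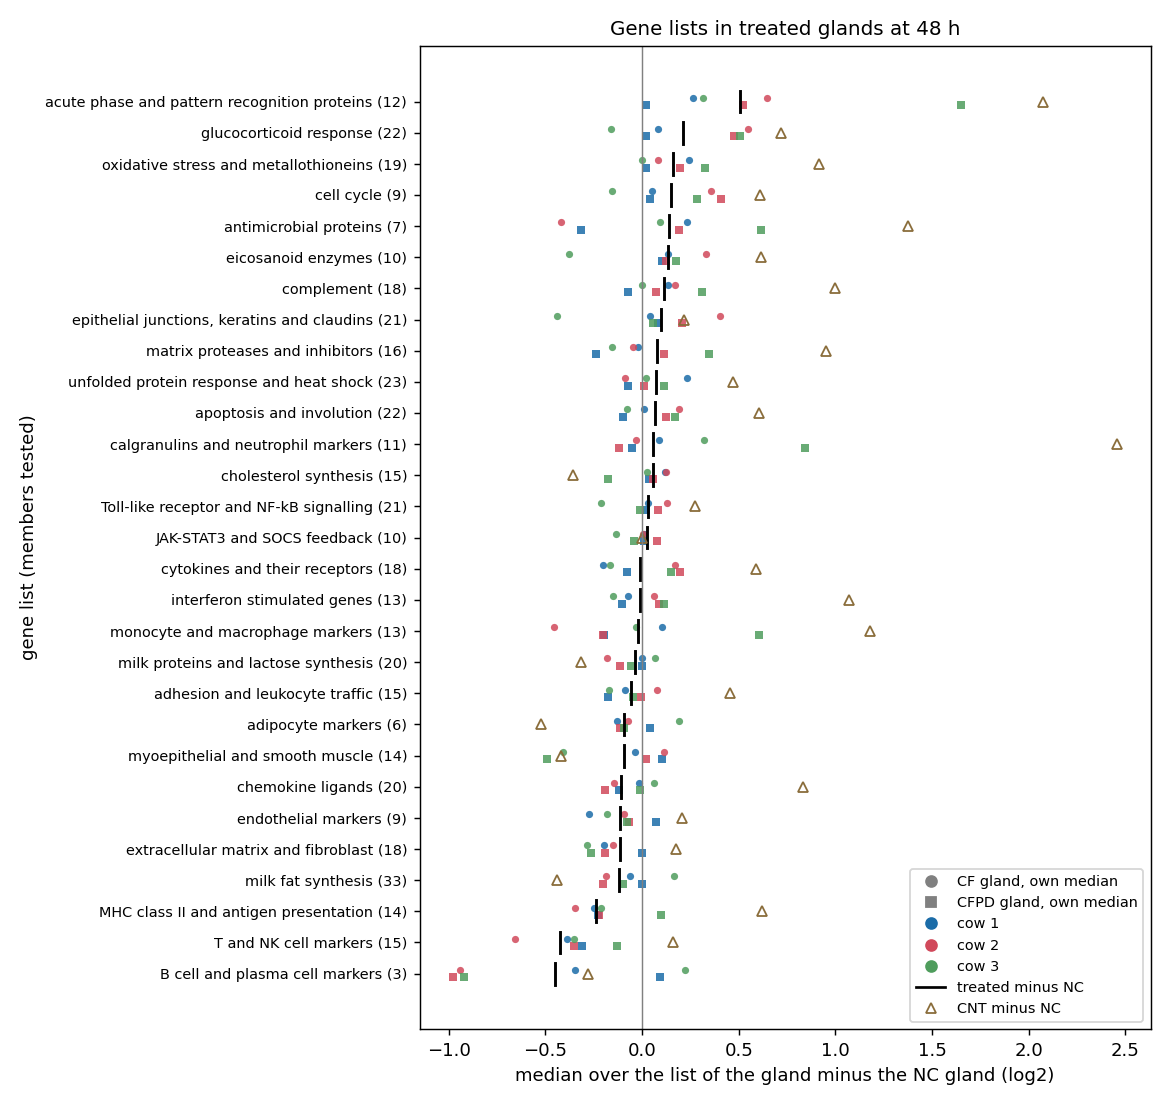
Median over each of 29 gene lists (rows, members tested in brackets) of the difference from the NC gland of the same cow (x axis, log2): small points are single CF (circles) and CFPD (squares) glands coloured by cow, the black tick is the treated minus NC median and the open triangle the CNT minus NC median. Treated medians run from -0.45 for B cell and plasma cell markers to 0.51 for acute phase proteins, and the CNT median of neutrophil markers is 2.46. Of the 11 neutrophil markers, 5 were tested only through the CNT glands.

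The 20 milk protein and lactose synthesis genes had a median of -0.03, beside -0.32 in CNT glands, and none passed an unadjusted p below 0.05. The most abundant of them read close to the top of the table's range, PAEP at 15.54 in treated and 15.53 in NC glands and CSN2 at 15.48 and 15.54, where differences can be compressed. CSN1S1, alpha-S1-casein, read 14.92, 14.65 and 14.82 in CF, 14.87, 14.44 and 14.67 in CFPD, and 14.94, 14.50 and 14.63 in NC glands (mean difference 0.04, SE 0.09). The widest differences of that list were 0.19 for SLC2A8, a glucose transporter, and -0.23 for MUC15, a mucin of the milk fat globule membrane. The 33 milk fat genes had a median of -0.12, beside -0.44 in CNT glands with 7 called lower. Of these 33, 26 had a negative mean difference (51.9% of all probe sets did) and 2 were lower at an unadjusted p below 0.05. LPL, lipoprotein lipase, averaged -0.41 (SE 0.22), or -0.11 without cow 2, and VLDLR, the receptor for very low density lipoprotein, -0.34 (SE 0.13). Both were called lower in CNT glands (-1.81 and -1.12).

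The matrix and fibroblast list had a median of -0.12 over 18 genes. COL3A1, a fibrillar collagen chain, averaged -0.40 (SE 0.16) and LUM, the proteoglycan lumican, -0.70 (SE 0.40), with -2.28 in the CFPD gland of cow 3. PTGDS, prostaglandin D synthase, averaged -0.51 (SE 0.22), beside 1.54 in CNT glands, where it was called higher. ALOX15, a lipoxygenase, averaged -0.61 (SE 0.31), or -0.22 without cow 2, and in CNT glands it was called lower, by -3.30. MCL1, an anti-apoptotic protein, averaged 0.41 (SE 0.17), or 0.16 without cow 2, with 5 of 6 glands above NC.

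The infection response was then defined in other animals. In the CNT glands of cows 4 and 5 at 24 h, 70 probe sets stood at least 2 above NC in both cows and 15 at least 2 below it. In these cows the 70 had a median CNT difference of 3.25. At 48 h in cows 1 to 3 their median was 0.29 in treated glands and 2.54 in CNT glands, with 47 of 70 positive in treated glands, where 48.1% of all probe sets were. Of the 70, 19 were tested only through the CNT glands of 48 h, and the treated median over the other 51 was 0.30. The CNT median of 2.54 includes these 19, which passed the filter by high CNT readings. With no filter on low values the treated median was 0.20. Of the 70, 7 had a mean treated difference of 1 or more (0.185% of all probe sets), 5 were above NC in all 6 glands (2.36% of all) and 3 were below it in all 6 (4.52% of all), and none was called. HP, SAA3, CXCL2, MPZL2, GRO1 and CHI3L1 were among the 7, while CCL4 and CD69 were among the 3.

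**Figure D3:**
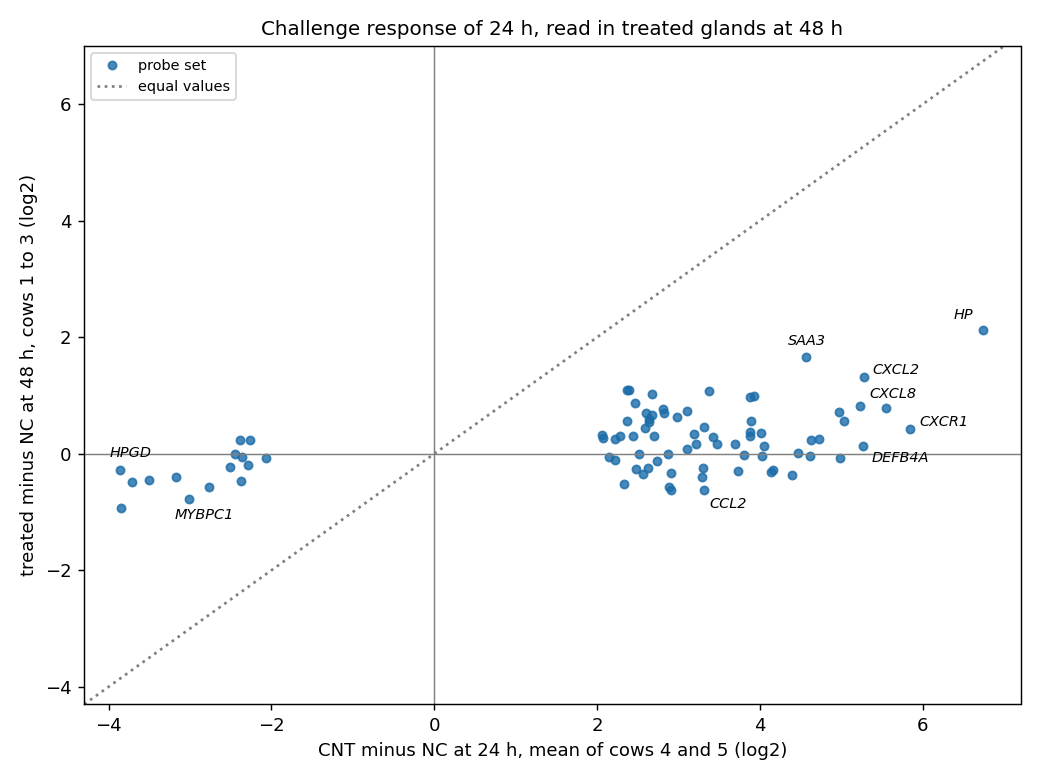
Each point is 1 of the 70 probe sets that stood at least 2 above NC, or of the 15 that stood at least 2 below it, in the CNT glands of both cows of 24 h; the x axis is their mean CNT minus NC difference at 24 h (log2, cows 4 and 5) and the y axis the treated minus NC difference at 48 h (log2, cows 1 to 3), with the dotted line at equal values. The points of the 70 higher probe sets lie between -0.63 and 2.12 on the y axis, all below the dotted line, with HP highest.

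The treated glands differed in the 70 probe sets. Their median difference from NC was 0.08 in the CF gland and -0.25 in the CFPD gland of cow 1, 0.03 and 0.14 in those of cow 2, and 0.26 and 0.99 in those of cow 3. In the CFPD gland of cow 3, 33 of the 70 (47.1%) stood at least 1 above NC, where 1.31% of all probe sets did, and in the CFPD gland of cow 1 none did (0.0769% of all). The other 4 glands had 8 to 14, and the CNT glands of 48 h had 57 to 68. DEFB4A, CXCR1, S100A8 and PLEK, a phosphoprotein of leukocytes, all stood more than 4 above NC at 24 h in CNT glands, and at 48 h averaged 0.14, 0.42, 0.26 and -0.28 in treated glands. CXCR1 and PLEK were tested through the CNT glands only, with treated and NC means of 6.11 and 5.70 for CXCR1 and 5.96 and 6.24 for PLEK. Without cow 3 the median over the 70 was 0.11.

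The 15 probe sets that were lower at 24 h had a median of -0.28 in treated glands at 48 h, beside -1.33 in CNT glands, and 12 were negative. MYBPC1, a myosin-binding protein, averaged -0.78 (SE 0.24) with 5 of 6 glands below NC, beside -3.36 in CNT glands. HPGD, which inactivates prostaglandins, averaged -0.28 (SE 0.31), PHYHIPL -0.46 (SE 0.26) and SHISAL2B -0.49 (SE 0.59). The SHISAL2B value came largely from the CF gland of cow 1, at -3.06. Without cow 3 the median over the 15 was -0.002.

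The treatments were also read separately, with the labels of the glands as given. No probe set was called for CF minus NC (0% of 13000), for CFPD minus NC (0%) or for CFPD minus CF (0%), in limma. At an unadjusted p below 0.05, CF minus NC had 215 higher (1.65%) and 347 lower (2.67%) probe sets, CFPD minus NC had 211 (1.62%) and 225 (1.73%), and CFPD minus CF had 189 (1.45%) and 176 (1.35%). The counts of both directions together moved with single cows, for CF minus NC to 280 without cow 1 and 1562 without cow 3, for CFPD minus NC to 194 without cow 2, and for CFPD minus CF to 578 without cow 3. UBD averaged -1.16 in CF and -1.15 in CFPD glands, and CFPD minus CF was 0.01 (SE 0.14). CXCL10 averaged -1.67 and -1.73, LBP 1.91 and 1.65, and CXCL2 1.65 and 0.97. The T and NK marker median was -0.55 in CF and -0.34 in CFPD glands, and the acute phase median 0.27 and 0.70. The CF and CFPD labels of cow 2 are in doubt, so the separate CF and CFPD averages and medians above rest on uncertain labels. These averages and medians are not given with the labels exchanged. The same doubt holds for each reading of a single CF or CFPD gland of cow 2. Exchanging the labels of cow 2, or those of cow 1, left 0 calls in each of these 3 comparisons.

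At 24 h, treated glands of cows 4 and 5 had received fewer infusions, and no probe set was called against NC by limma (0% of 13000), with 494 higher (3.8%) and 1029 lower (7.92%) at an unadjusted p below 0.05. The difference between 48 h and 24 h in treated minus NC was called for no probe set either (0%), with 408 higher (3.14%) and 444 lower (3.42%) at that unadjusted p. Time and animal coincide, since each cow was sampled once. UBD averaged -0.46 at 24 h and CXCL10 0.50, so that the 48 h minus 24 h difference of CXCL10 was -2.19 (SE 0.48, adjusted p = 0.758). LBP averaged 0.41 at 24 h. The T and NK marker median was -0.23 at 24 h and the acute phase median 0.09.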

How the data were processed

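Total RNA of 20 mammary glands of 5 cows was hybridised by the authors to Affymetrix bovine arrays. The authors deposited log2 values per probe set after RMA (background correction, quantile normalization and median polish), made with affy, and per the labels limma was among their tools. Those steps set a common distribution on all arrays, so a shift shared by most genes would not be seen, and values near background are compressed. The table held 24128 probe sets (112 controls), with values from 2.3 to 15.6, and it has no read depth. The number of arrays limits the precision, and the median standard error of a difference was 0.114. Gene names came from the array annotation, in which 13318 probe sets had 1 symbol, 86 had several and 10724 had none, and 13283 of the gene IDs were found in RefSeq. CCR1 and MAP3K8 were named through the probe set IDs in the study's supplementary tables. IL12A was not tested under that name. The probe set that those tables name IL12A is annotated as CP, a gene of the acute phase list, and the conflict was not resolved.

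Here, probe sets above the array median on at least 3 of the 12 arrays of 48 h were kept (13000), and limma 3.58.1 in R 4.3.3 (lmFit, eBayes) was fitted to the log2 values of the 6 treated and 3 NC arrays with cow as a block, which left 5 residual degrees of freedom (prior 4.31). The pairing comes from the labels, since the glands of 1 number belong to 1 cow, and deviations from the group means correlated within cows by 0.629 on average (0.334 to 0.837). Adjusted p-values are Benjamini-Hochberg values over all 13000. The treated glands of a cow share an animal, so 6 glands are 3 animals. Separate fits gave CF, CFPD, CNT, 24 h and time comparisons, and the fit was tested on simulated data. Where several probe sets measured 1 gene, the most abundant was used, or, for genes chosen by their shared direction, the one that differed most.

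Named genes were the called ones, the 12 highest and 12 lowest among those on 1 side of NC in all 6 glands, the inflammatory genes the study named, the 2 extreme members at each end of each list, and the strongest genes of the 24 h response, from which a selection is given, and any other is named as chosen after its values were seen. The members and the 29 gene lists were chosen with earlier results of these data known. Alternatives changed the block, the samples, the filter, the prior, the scaling and the thresholds, and left out each array or cow. Exchanging the labels of cow 2, and the extra settings for single genes and list members, were chosen after seeing the data.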

Additional observations from a re-analysis of the deposited data

Results flagged for a closer look

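In 11 of the 76 genes examined, 1 of the 6 treated glands stood apart from the others by more than Dixon's 95% critical value for 6 samples for its difference from the NC gland of the same cow. The rate of 1 gene in 20 by chance holds for 6 independent values. Here the treated glands of a cow share that cow and her NC gland, and many genes were chosen by their differences. The count of 11 can therefore not be set against that rate. The CFPD gland of cow 3 was the gland apart in 6 of the 11. Its differences were 4.78 for CHI3L1 (nearest gland 0.881), 3.49 for DEFB4A (nearest 0.281), 2.78 for S100A12 (nearest 0.736), 2.5 for CD68 (nearest 0.445), 2.36 for S100A2 (nearest 0.959) and 0.603 for CSF1R (nearest -0.0603).

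The CF gland of cow 2 was lowest for CD3G, at -1.36 (nearest -0.757), and for CCL5, at -1.32 (nearest -0.535). The treatment label of that gland is in doubt. The CF gland of cow 1 was lowest for SHISAL2B, at -3.06 (nearest -0.49), and for RSAD2, at -0.555 (nearest -0.28). The CF gland of cow 3 was highest for CD6, at 0.594 (nearest 0.17).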

How the results depend on the processing

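Without the replicate block, that is without pairing the glands of a cow, 0 probe sets were called between treated and NC glands in place of 1, 55 were higher and 87 lower at an unadjusted p below 0.05, and 346 were called between CNT and NC glands in place of 672. The count of lower T and NK cell markers was then 2 of 15. UBD had an adjusted p of 1 without the block, 0.016 with cow as a random block, 0.23 with the treated glands of a cow averaged first, 0.371 with all 12 arrays, 0.0154 with a trended prior, 0.0234 after median centring and 0.095 after quantile normalization of the 9 arrays. Averaging, all 12 arrays and quantile normalization thus each gave 0 calls. At an adjusted p below 0.1, 2 probe sets were called, UBD and CXCL10. With all 12 arrays 75 were higher and 161 lower at an unadjusted p, and with no filter 464 and 621. The cause of these shifts was not tested.

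Leaving out 1 array or 1 cow gave 0 to 6 called probe sets (6 without cow 3), 105 to 775 higher and 230 to 582 lower at an unadjusted p, and, by cow, 228 to 667 called between CNT and NC. The median of the 70 genes of the 24 h response was 0.1112 to 0.3856 and that of the 15 lower ones -0.3179 to -0.002163. The sign turned without some array or cow for 8 genes, whose differences ran from -0.006037 to 0.04816 (CCL3), -0.2793 to 0.1587 (CD40), -0.1842 to 0.05987 (CSF1R), -0.07804 to 0.1507 (MAP3K8), -0.3108 to 0.5867 (CD68), -0.6739 to 0.7487 (DEFB4A), -0.6563 to 0.006668 (HPGD) and -0.8595 to 0.03769 (SHISAL2B). Counting only genes that passed the filter without the CNT arrays, a choice made after seeing the data, the acute phase median was 0.15 and the neutrophil median 0.30. The counts of 0 for CF, CFPD, CFPD minus CF and time held in each alternative run. With 3 animals and a median standard error of 0.114, small differences could not be detected.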

Other observations

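The gene lists that the text has not described had treated minus NC medians close to 0 and held no called member. The highest were oxidative stress and metallothioneins (0.16 over 19 genes, 16 of them positive), cell cycle (0.15 over 9), eicosanoid enzymes (0.13 over 10) and complement (0.11 over 18). In CNT glands these medians were 0.92, 0.61, 0.62 and 0.9997. The lowest were endothelial markers (-0.11 over 9), myoepithelial and smooth muscle genes (-0.09 over 14) and adipocyte markers (-0.09 over 6), beside 0.21, -0.42 and -0.52 in CNT glands. Cholesterol synthesis genes had a median of 0.06 over 15 genes, beside -0.36 in CNT glands.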
